A study of Mus musculus with 15 samples.

Results

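The accessory subunits of the sodium-potassium pump are described here by 5 genes, taken by their symbols from the deposited table of 38283 genes. They are 3 genes of the beta subunit, Atp1b1, Atp1b2 and Atp1b3, and 2 genes of the FXYD family, Fxyd3 and Fxyd6. Each symbol matched 1 row, and all 5 genes passed the filter of a mean above 1 FPKM in at least 1 cell type, as did 14405 genes in all. RNA sequencing had been performed on 15 samples of islet cells purified by flow cytometry from mice on a C57BL/6 background, whose age is not given in the sources used here. Alpha cells (n = 5) were the Venus-positive cells of Glu-Venus mice, in which the proglucagon promoter drives the fluorophore Venus. Beta cells (n = 4) came from the Venus-negative fraction of the same line, gated on scatter and autofluorescence and so without a marker of their own. Delta cells (n = 6) were the EYFP-positive cells of Sst-CreXROSA26EYFP/EYFP mice, in which Cre under the somatostatin promoter switches on the reporter EYFP, so delta cells came from another mouse line than alpha and beta cells, and line and cell type cannot be told apart. Each sample was a pool of islets from several mice.

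The sodium-potassium pump is a P-type ATPase of the plasma membrane that expels sodium and takes up potassium, and so maintains the gradients on which the membrane potential and sodium-coupled transport of excitable endocrine cells depend. Its alpha subunit carries the catalytic site, its beta subunit is a glycoprotein needed for folding and delivery of the complex to the membrane, and FXYD proteins are small single-span partners that tune its affinity for ions. Expression was given as FPKM, the number of fragments scaled to the length of the transcript and to the reads mapped in the sample, so that levels of different genes can be set side by side.

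The hormone genes followed the sample labels. Summed alpha cell markers (Gcg, Irx2 and Ttr) were between 194900 and 363600 FPKM in alpha cells and at most 3004 FPKM elsewhere. Summed beta cell markers were at least 118300 FPKM in beta cells and at most 12690 elsewhere, and summed delta cell markers at least 102600 in delta cells and at most 3346 elsewhere. The pancreatic polypeptide gene Ppy was at 17730 to 41390 FPKM in alpha cells and 10860 to 48600 in delta cells, but at 17.0 to 98.1 in beta cells. Ribosomal protein genes, 86 in number, had a summed FPKM above 50000 in 6 samples (numbers 1 to 3 of alpha cells, 2 of beta cells, 1 and 2 of delta cells) and below it in the other 9. Reads per sample, judged from the steps that single reads leave in low FPKM values, lay between 7.47 M and 30.5 M in the 6 samples where steps could be resolved, and are unknown in the other 9.

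Across cell types, 4 of the 5 genes differed in limma's F-test (adjusted p under 0.05), all but Atp1b3, where 16.0% of the genes tested did. In delta against alpha cells, Atp1b1, Atp1b2 and Fxyd6 were higher, 3 of 5 genes, against 5.33% of all genes called higher. In delta against beta cells, Atp1b2, Fxyd3 and Fxyd6 were higher, again 3 of 5, against 11.7%. None of the 5 genes was called in beta against alpha cells by limma, where 7.66% of all genes were, although 3 of the 5 had an unadjusted p under 0.05. None was called lower in delta cells, against 1.48% and 2.99% of all genes. These shares depend on the scaling. With size factors 2.37% and 9.0% of all genes were called lower and 5.01% and 9.57% higher, and with FPKM rescaled to the same sum over all genes 10.1% were called higher in delta against alpha cells. In both comparisons 3 of the 5 genes had delta cell samples that did not overlap those of the other cell type and were higher, as did 4.97% and 12.3% of all genes. In bulk samples a higher level in every cell and a larger share of cells that express a gene cannot be told apart. The median difference in mean log2(FPKM + 1) over the 5 genes was 1.60 in delta against alpha cells, 2.27 in delta against beta cells and -0.17 in beta against alpha cells, where the medians over all genes tested were 0.13, 0.30 and -0.13. Division by median-ratio size factors moved these medians over all genes by -0.12, -0.28 and 0.13, and quantile normalization by -0.17, -0.30 and 0.11. Rescaling to the same sum over all genes moved them by 0.32, -0.11 and 0.31, and over protein-coding genes without hormones by 0.39, 0.19 and 0.14. Both comparisons with delta cells share the delta cell samples and are therefore not independent.

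**Figure D1:**
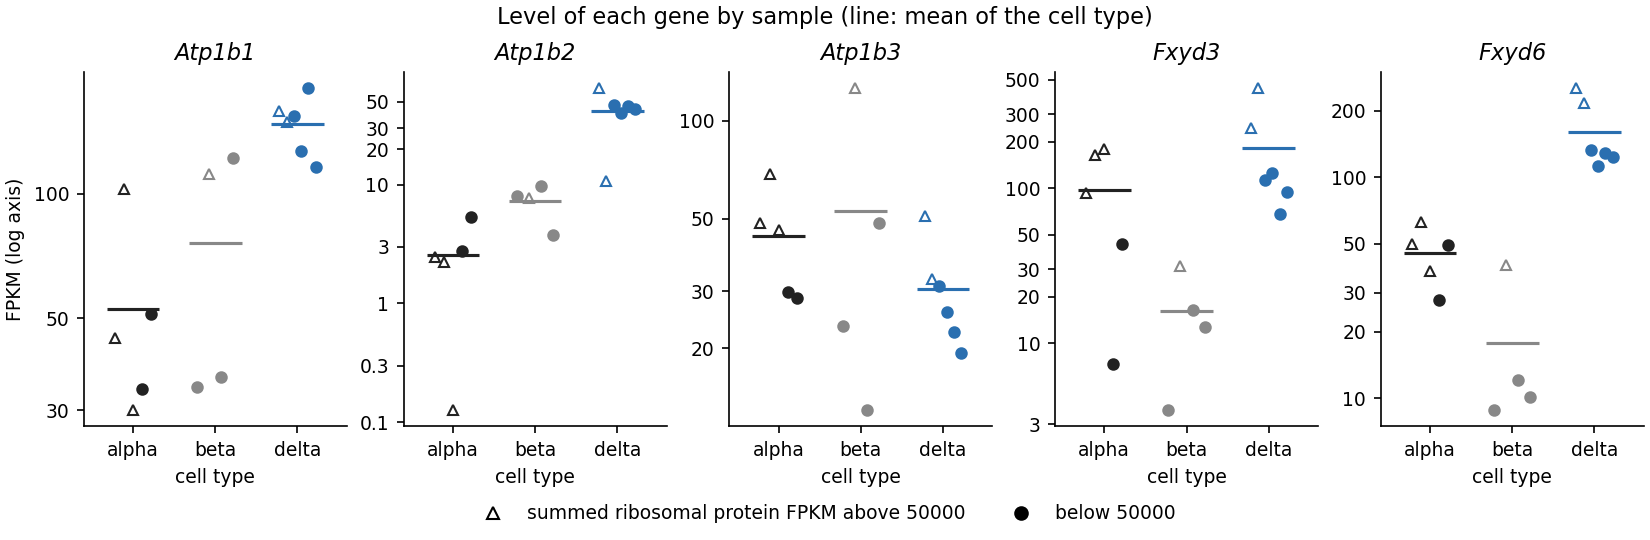
FPKM (log axis) of each gene in 5 alpha, 4 beta and 6 delta cell samples, with a line at the mean of the cell type and open triangles for samples whose summed ribosomal protein FPKM was above 50000. Delta cell samples lie above all alpha cell samples for Atp1b1, Atp1b2 and Fxyd6, whereas the cell types overlap for Atp1b3.

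The genes lie on 4 chromosomes of GRCm38 and are all annotated as protein coding in GENCODE M21. Atp1b1 is on the minus strand of chromosome 1 (164437109 to 164458355), with 4 annotated transcripts of up to 6 exons. Atp1b2 is on the minus strand of chromosome 11 (69599736 to 69605942), with 5 transcripts of up to 7 exons. Atp1b3 and Fxyd6 are both on chromosome 9, the first on the minus strand (96332655 to 96364442) and the second on the plus strand (45370185 to 45396159). Fxyd3 is on the minus strand of chromosome 7 (31068172 to 31076704) and has 11 transcripts of 141 to 2894 nt, the most of the 5 genes. Exons of Fxyd3 share 2059 bases with exons of Lgi4 on the opposite strand, and those of Atp1b1 share 575 bases with Nme7, also on the opposite strand. The counting is not stated to use strand, so reads of such partners cannot be told apart in the shared bases. Lgi4 itself was listed at no more than 1.23 FPKM and Nme7 at no more than 5.76 FPKM in any sample.

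The 250 bases before the annotated start of transcription are shown for the members with an entry in the RefSeq table of promoters (GRCm38.p6), 4 of the 5, because Atp1b1 and Fxyd6 were both higher in delta than in alpha cells, Fxyd3 was higher in delta cells than in beta cells and Atp1b3 was not called in any comparison. For Atp1b3, 1 of 2 annotated starts is shown. Sequences read 5′ to 3′ on the strand of the gene, and capitals mark matches to GGGCGG (a GC box) or CCAAT on either strand. The last 11 bases for Atp1b3 and the last 7 for Fxyd3 lie in exons of GENCODE.
Atp1b1, chr1:164458356-164458605, minus strand: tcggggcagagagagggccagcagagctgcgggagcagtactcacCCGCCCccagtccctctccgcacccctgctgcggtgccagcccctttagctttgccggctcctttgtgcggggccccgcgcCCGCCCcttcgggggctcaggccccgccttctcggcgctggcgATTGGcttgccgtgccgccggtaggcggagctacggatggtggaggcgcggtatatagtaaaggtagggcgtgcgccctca
Atp1b3, chr9:96364432-96364681, minus strand: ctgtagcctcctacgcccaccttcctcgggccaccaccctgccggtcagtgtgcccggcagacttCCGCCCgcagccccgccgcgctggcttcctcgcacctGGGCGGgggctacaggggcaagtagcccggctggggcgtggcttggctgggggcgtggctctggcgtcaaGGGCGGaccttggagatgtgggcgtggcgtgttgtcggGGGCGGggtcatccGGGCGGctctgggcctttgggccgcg
Fxyd3, chr7:31076698-31076947, minus strand: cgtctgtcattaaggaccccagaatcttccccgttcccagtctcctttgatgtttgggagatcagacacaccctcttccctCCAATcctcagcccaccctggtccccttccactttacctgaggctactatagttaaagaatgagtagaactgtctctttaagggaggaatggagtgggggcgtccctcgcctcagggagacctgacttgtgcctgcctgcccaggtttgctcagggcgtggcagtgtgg
Fxyd6, chr9:45369935-45370184, plus strand: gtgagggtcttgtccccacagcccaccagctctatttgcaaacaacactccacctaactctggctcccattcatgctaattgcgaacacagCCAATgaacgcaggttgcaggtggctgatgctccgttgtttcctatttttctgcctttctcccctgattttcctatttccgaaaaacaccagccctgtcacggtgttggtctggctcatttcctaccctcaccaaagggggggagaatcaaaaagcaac
The windows of Atp1b1 and Atp1b3 were rich in G and C (70.4% and 73.6%) with 24 CG dinucleotides each, and those of Fxyd3 and Fxyd6 less so (55.2% and 50.4%) with 5 each; the median over 32851 RefSeq windows was 52.4%. GGGCGG matched 2 times in the window of Atp1b1, 5 times in that of Atp1b3 and not in those of Fxyd3 and Fxyd6, and 32.7% of all windows hold it. The window of the other annotated start of Atp1b3, not shown, held neither GGGCGG nor CCAAT and 1 E-box. CCAAT matched 1 time each in the windows of Atp1b1, Fxyd3 and Fxyd6, and 33.8% of all windows hold it. The E-box CANNTG, which 66.2% of windows hold, matched 1 time each for Atp1b3 and Fxyd6. The other 4 motifs, searched on both strands, matched in none of these windows. The TATA box was searched as TATAAA, which 12.4% of all windows hold. Variants were not searched, so the TATATA near the end of the Atp1b1 window is not counted. The cAMP response element was searched as TGACGTCA (1.55% of windows). The homeodomain core was searched as TAATTA (4.84% of windows). The half-site of the glucocorticoid and mineralocorticoid receptors was searched as TGTTCT (16.1% of windows).

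Among the beta subunits, Atp1b1, which encodes the widely expressed beta 1 isoform, had the highest mean in each cell type. Atp1b3 was above it in alpha samples 1 and 3 and in beta sample 2, but not in any delta cell sample. Atp1b1 was at 44.8, 103, 30.03, 33.8 and 51.2 FPKM in alpha cell samples 1 to 5 and at 34.2, 112, 36.1 and 122 FPKM in beta cell samples 1 to 4. In delta cells it ranged from 116 to 180.5 FPKM (median 152). The lowest delta cell sample was above the highest alpha cell sample but below beta cell sample 4, and the beta cell samples fell into a low and a high pair. Means were 52.6 ± 29.4 FPKM for alpha cells (SD, n = 5), 76.1 ± 47.4 for beta cells (SD, n = 4) and 148 ± 23.2 for delta cells (SD, n = 6).

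The level of Atp1b1 in delta cells was 2.81 times that in alpha cells by the ratio of means. On the log2(FPKM + 1) scale the difference was 1.60 (SE 0.424, adjusted p = 0.0293, limma). Leaving out single samples ended this call in 6 of 15 fits. The adjusted p was 0.0636 without alpha sample 1, 0.0774 without alpha sample 3 and 0.0635 without alpha sample 4 (limma). It was 0.0516 without delta sample 1, 0.0523 without delta sample 3 and 0.0557 without delta sample 5 (limma). The call was also lost in the 9 samples with lower ribosomal protein FPKM alone (1.75, adjusted p = 0.127, limma). Against beta cells the difference was 1.17 (95% interval 0.21 to 2.13, adjusted p = 0.0965, limma), which became a call without beta sample 2 (1.44, adjusted p = 0.0387, limma). Alpha and beta cells, neighbours in the order of levels, did not differ beyond their spread (0.43, 95% interval -0.57 to 1.43, adjusted p = 0.62, limma). The mean of Atp1b1 above and below the ribosomal protein limit was 59.3 and 42.5 FPKM in alpha, 112 and 64.2 in beta, and 154 and 144.5 in delta cells.

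Atp1b2, which encodes the beta 2 isoform first described in glia as an adhesion molecule, had the widest gap of the 5 genes between delta and alpha cells. It was at 2.44, 2.24, 0.126, 2.75 and 5.30 FPKM in alpha cell samples 1 to 5 and at 8.06, 7.66, 9.69 and 3.76 FPKM in beta cell samples 1 to 4. In delta cells it ranged from 10.8 to 64.9 FPKM (median 44.8). No delta cell sample overlapped the alpha or beta cells, and delta sample 2, the lowest, was nearer to the beta cell samples than to the other delta cell samples, which were at 40.0 FPKM or more. Alpha and beta cell samples overlapped. Means were 2.57 ± 1.84 FPKM for alpha cells (SD, n = 5), 7.29 ± 2.51 for beta cells (SD, n = 4) and 42.1 ± 17.6 for delta cells (SD, n = 6).

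By the ratio of means, Atp1b2 was 16.4 times as high in delta as in alpha cells and 5.77 times as high as in beta cells. The log2(FPKM + 1) differences were 3.62 (SE 0.475, adjusted p = 9.69e-05, limma) and 2.27 (SE 0.506, adjusted p = 0.00631, limma). Both held in all 27 alternative fits of these comparisons, with the adjusted p at most 0.00513 and 0.0461. Beta cells were 1.35 above alpha cells on this scale (95% interval 0.23 to 2.46), without a call (adjusted p = 0.134, limma). The mean of Atp1b2 above and below that limit was 1.60 and 4.03 FPKM in alpha, 7.66 and 7.17 in beta, and 37.8 and 44.2 in delta cells. Of the Schwann and glial markers reported here, Sox10 was at 0 outside delta cells and at no more than 0.0134 FPKM within them, and S100b was at 0 outside delta cells and at no more than 0.14 FPKM within them.

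Atp1b3, which encodes the beta 3 isoform, did not follow the other beta subunits. It was at 48.5, 68.8, 46.1, 29.7 and 28.5 FPKM in alpha cell samples 1 to 5, at 23.4, 126, 12.9 and 48.7 FPKM in beta cell samples 1 to 4, and between 19.3 and 51.1 FPKM (median 28.4) in delta cells. All cell types overlapped, and beta cells held both the highest and the lowest value of all 15 samples. Means were 44.3 ± 16.5 FPKM for alpha cells (SD, n = 5), 52.7 ± 51.0 for beta cells (SD, n = 4) and 30.4 ± 11.3 for delta cells (SD, n = 6). The differences on the log2(FPKM + 1) scale were -0.52 in delta against alpha cells (95% interval -1.56 to 0.51, adjusted p = 0.662), -0.35 in delta against beta cells (-1.46 to 0.75, adjusted p = 0.704) and -0.17 in beta against alpha cells (-1.32 to 0.98, adjusted p = 0.902, all limma). The intervals include changes of either sign, and the sign of the last turned under 4 of the other scalings or fits, 3 of the leave-one-out fits and in the ratio of means. By that ratio, Atp1b3 in beta cells was 1.19 times that in alpha cells, or 0.639 times without beta sample 2, and in delta cells 0.577 times that in beta cells, or 1.07 times without it. Means of Atp1b3 in samples with summed ribosomal protein FPKM above 50000 were 54.5 FPKM in alpha, 126 in beta and 41.8 in delta cells, and in the others 29.1, 28.3 and 24.7 FPKM.

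**Figure D2:**
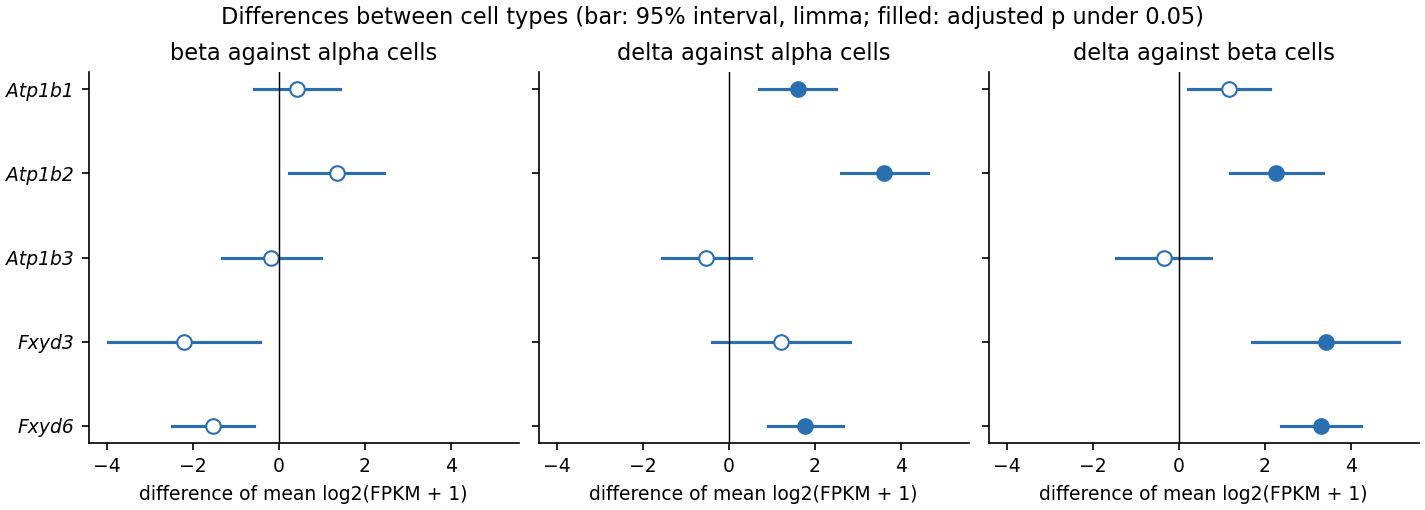
Differences of mean log2(FPKM + 1) between cell types for the 5 genes, with 95% intervals from limma, filled where the adjusted p was under 0.05. Of the 15 differences 6 are filled, all of them in delta cells and above 0, from 1.60 for Atp1b1 against alpha cells to 3.62 for Atp1b2 against alpha cells.

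The make-up of the beta subunit transcripts within a sample does not change when all its genes are scaled by the same factor. It can change under quantile normalization. Each gene was therefore also taken as a percentage of the summed FPKM of Atp1b1 to Atp1b4. Atp1b4 was listed at 0 in every sample. Atp1b1 made up 51.3 ± 8.74% for alpha cells (SD, n = 5), 57.3 ± 10.7% for beta cells (SD, n = 4) and 67.5 ± 6.77% for delta cells (SD, n = 6). Atp1b3 made up 45.8 ± 10.3%, 34.2 ± 12.7% and 13.7 ± 3.6% in the same order, and Atp1b2 2.88 ± 2.39%, 8.52 ± 7.02% and 18.8 ± 6.83%. The share of Atp1b3 in delta cells, from 9.02% to 18.6%, was below that in every beta cell sample (22% to 51.3%) and every alpha cell sample (33.5% to 60.4%). The share of Atp1b2 in delta cells, from 5.6% to 24.3%, overlapped that in alpha (0.165% to 6.24%) and beta cells (2.15% to 16.5%) because of delta sample 2. A share depends on the other genes in the sum, so a smaller share of Atp1b3 is not a lower level. Its level overlapped between all cell types and was not called. No test was run on these shares, which combine genes chosen with earlier results known.

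**Figure D3:**
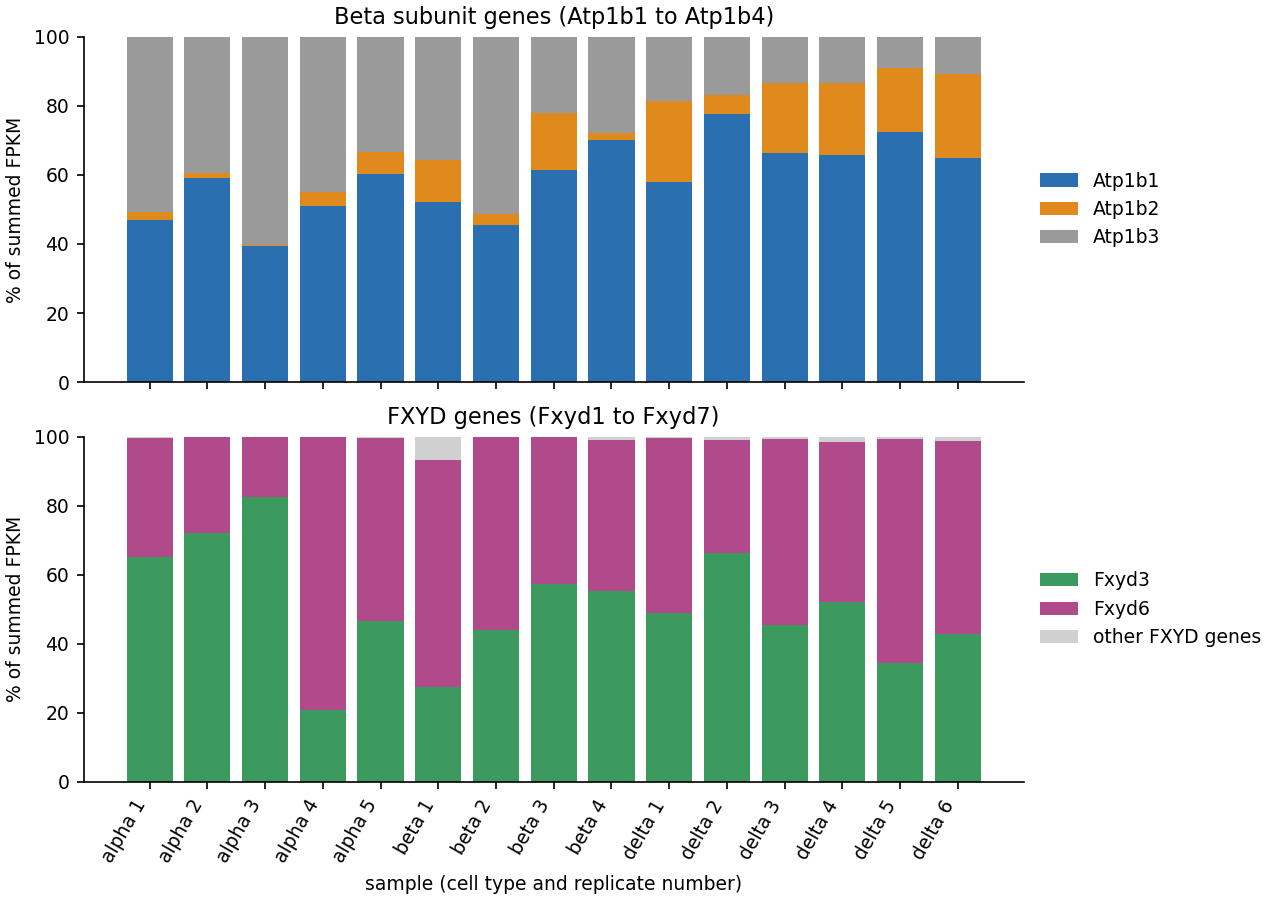
Percentage of the summed FPKM of the beta subunit genes (top) and of the FXYD genes (bottom) taken by each gene in each of the 15 samples. Atp1b3 takes 9.02% to 18.6% of the beta subunit transcripts in delta cells and more in every alpha and beta cell sample, whereas its level overlaps between cell types. Fxyd3 and Fxyd6 together take most of the FXYD transcripts in each sample.

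Fxyd6 encodes phosphohippolin, an FXYD protein known from brain. It was at 49.7, 62.9, 37.6, 27.9 and 49.2 FPKM in alpha cell samples 1 to 5 and at 8.81, 40.2, 12.1 and 10.1 FPKM in beta cell samples 1 to 4. In delta cells it ranged from 112 to 253 FPKM (median 131). Every delta cell sample was above all others, and the alpha cell samples were above all beta cell samples but number 2. Means were 45.5 ± 13.3 FPKM for alpha cells (SD, n = 5), 17.8 ± 14.99 for beta cells (SD, n = 4) and 161 ± 58.9 for delta cells (SD, n = 6).

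Delta cells were 3.54 times as high in Fxyd6 as alpha cells and 9.05 times as high as beta cells by the ratio of means, or 15.6 times without beta sample 2. The log2(FPKM + 1) differences were 1.78 (SE 0.409, adjusted p = 0.0119, limma) and 3.31 (SE 0.436, adjusted p = 8.84e-05, limma), and both held in all 27 alternative fits. Between beta and alpha cells the difference of Fxyd6 was -1.53 (95% interval -2.49 to -0.57), which did not pass the threshold (adjusted p = 0.0509, limma). It was -0.39 with FPKM rescaled to the same sum over all genes (adjusted p = 0.677, limma). It passed in 11 of 28 alternative fits, among them those without beta sample 2 (-2.0, adjusted p = 0.0033), without alpha sample 4 (-1.69, adjusted p = 0.0365) and without delta sample 1 (-1.53, adjusted p = 0.0487, all limma). In samples with summed ribosomal protein FPKM above 50000 the mean of Fxyd6 was 50.1 FPKM in alpha, 40.2 in beta and 235 in delta cells, and in the others 38.6, 10.3 and 124 FPKM.

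Fxyd3 encodes an FXYD protein of epithelia. It was at 93.7, 163, 178, 7.33 and 43.4 FPKM in alpha cell samples 1 to 5 and at 3.69, 31.4, 16.3 and 12.8 FPKM in beta cell samples 1 to 4. In delta cells it ranged from 68.6 to 441 FPKM (median 119). Every delta cell sample was above every beta cell sample, while alpha cells ran from the level of beta cells to that of delta cells. Means were 97.1 ± 73.9 FPKM for alpha cells (SD, n = 5), 16.1 ± 11.5 for beta cells (SD, n = 4) and 181 ± 141 for delta cells (SD, n = 6).

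Fxyd3 was 11.3 times as high in delta as in beta cells by the ratio of means, with a log2(FPKM + 1) difference of 3.42 (SE 0.805, adjusted p = 0.00896, limma), a call that held in all 27 alternative fits. Delta and alpha cells did not differ beyond their spread (1.22, 95% interval -0.38 to 2.82, adjusted p = 0.479, limma), and this difference was 0.49 without alpha sample 4 (adjusted p = 0.717, limma). Between beta and alpha cells the difference was -2.20 (95% interval -3.97 to -0.43), an interval below 0, but it did not pass the adjusted threshold (adjusted p = 0.124, limma), which it did without alpha sample 4 (-2.93, adjusted p = 0.0179, limma). The level of Fxyd3 moved with the summed ribosomal protein FPKM in each cell type. Alpha cells averaged 145 FPKM in the 3 samples above 50000 and 25.4 FPKM in the 2 below it. Delta cells averaged 343 FPKM in the 2 samples above and 100.5 FPKM in the 4 below. The only beta cell sample above it was at 31.4 FPKM, and the other 3 averaged 10.9 FPKM. With this set as a term in the fit, delta cells were above alpha cells by 1.79 (adjusted p = 0.0284, limma), and in beta against alpha cells Fxyd3 differed by -1.46 (adjusted p = 0.0991, limma). In the 9 samples below 50000 alone neither was called, at 2.36 in delta against alpha (adjusted p = 0.146) and -0.89 in beta against alpha cells (adjusted p = 0.547, limma). Rescaling over all genes also gave -0.89 for the latter (adjusted p = 0.271, limma). The part of the ribosomal protein level in these differences was not tested further.

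**Figure D4:**
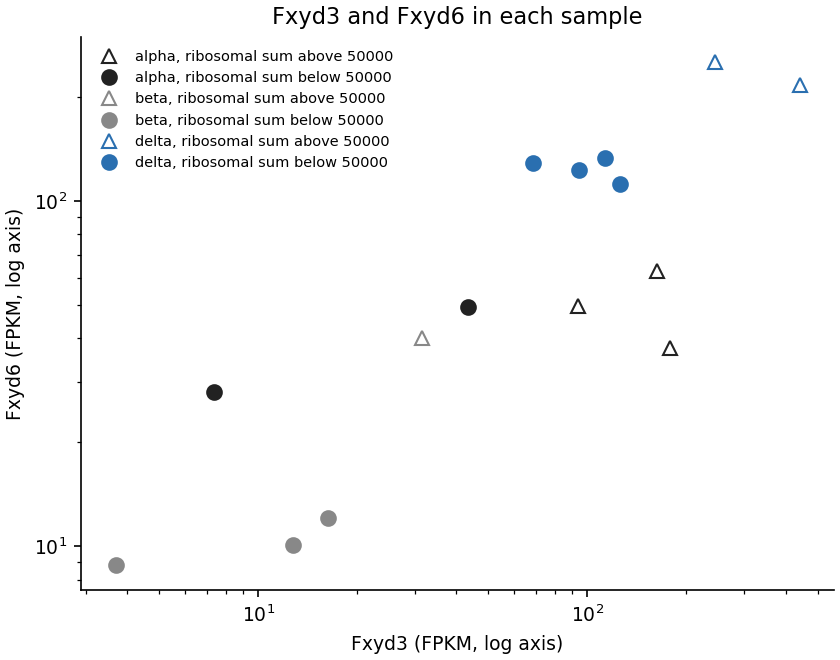
FPKM of Fxyd6 against Fxyd3 (both log axes) in each of the 15 samples, coloured by cell type, with open triangles where the summed ribosomal protein FPKM was above 50000. Delta cell samples lie at the top with 112 FPKM of Fxyd6 or more, beta cell samples at the lower left with number 2 apart from the other 3, and alpha cell samples spread from 7.33 to 178 FPKM of Fxyd3 at a Fxyd6 level of 27.9 to 62.9.

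Of the FXYD transcripts, taken as the summed FPKM of Fxyd1 to Fxyd7, Fxyd3 made up 57.4 ± 24.3% for alpha cells (SD, n = 5), 46.0 ± 13.7% for beta cells (SD, n = 4) and 48.4 ± 10.6% for delta cells (SD, n = 6). Fxyd6 made up 42.4 ± 24.3%, 52.0 ± 10.9% and 50.6 ± 10.7% in the same order. The cell types overlapped in both shares. In alpha cells the order of the 2 genes parted by the ribosomal protein level, with Fxyd3 at 73.2% and Fxyd6 at 26.6% in the 3 samples above 50000 and at 33.8% and 66.1% in the 2 below it. The remaining 5 genes of the family summed to a small part, of which the largest was 6.30% for Fxyd5 in beta sample 1.

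Of 7 other genes of the pump that are reported here, Fxyd2 passed the filter, and it was called higher in delta cells in both comparisons. Fxyd2, the gamma subunit known from kidney, was listed at 0 in all 5 alpha and all 4 beta cell samples and at 0.975 to 7.27 FPKM (median 1.46) in delta cells, with delta sample 2 the highest (adjusted p = 0.00746 against alpha and 0.00763 against beta cells, limma). It lies on the same strand of chromosome 9 as Fxyd6, 3510 bases beyond its end. Fxyd2 passed the filter through delta cells alone, which bears on its call there. Because these files give no counts, no fold is given against a value listed at 0. The genes Atp1a4, Atp1b4, Atp4b and Atp12a were listed at 0 in every sample, and Fxyd1, Fxyd4, Fxyd5 and Fxyd7 had means below 1 FPKM in each cell type.

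Among the exchangers that use the sodium gradient, 3 of the 4 reported here passed the filter, and Slc8a2 was called. Slc8a2, a sodium-calcium exchanger known mainly from neurons, was at 0.0175 to 0.294 FPKM in alpha cells, 0.00297 to 0.136 in beta cells and 0.263 to 3.54 (median 2.46) in delta cells. It too passed the filter through delta cells alone, where sample 2, the lowest, lay within the range of alpha cells. The log2(FPKM + 1) difference was 1.37 against alpha cells (adjusted p = 0.0132) and 1.49 against beta cells (adjusted p = 0.00754, limma). The first was not called after quantile normalization (0.94, adjusted p = 0.0799) and the second not after rescaling each sample to the same sum over all genes (0.64, adjusted p = 0.0552, limma). Slc8a1, the exchanger of heart, was at 4.63 to 14.1 FPKM in alpha cells, 1.24 to 4.77 in beta cells and 4.12 to 8.06 in delta cells, and was not called (beta against alpha cells -1.17, adjusted p = 0.0664, limma). That difference was called in some of the 28 alternative fits. Among them were size factors (-1.0, adjusted p = 0.0234), quantile normalization (-0.95, adjusted p = 0.0346) and rescaling over protein-coding genes (-1.08, adjusted p = 0.0469, all limma). It was also called in 3 of 15 leave-one-out fits, without alpha sample 4 (-1.33, adjusted p = 0.0397), alpha sample 5 or beta sample 2 (-1.35, adjusted p = 0.0346, all limma). It was -0.11 with rescaling over all genes (adjusted p = 0.894) and -0.74 in the 9 samples of lower ribosomal protein FPKM (adjusted p = 0.271, limma). Slc24a6, the older symbol of Slc8b1, was not called either. Of the related proton pumps Atp4a passed the filter and was not called. None of the 5 rows of the pump's interacting proteins, Nkain1 to Nkain4, passed the filter.

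**Figure D5:**
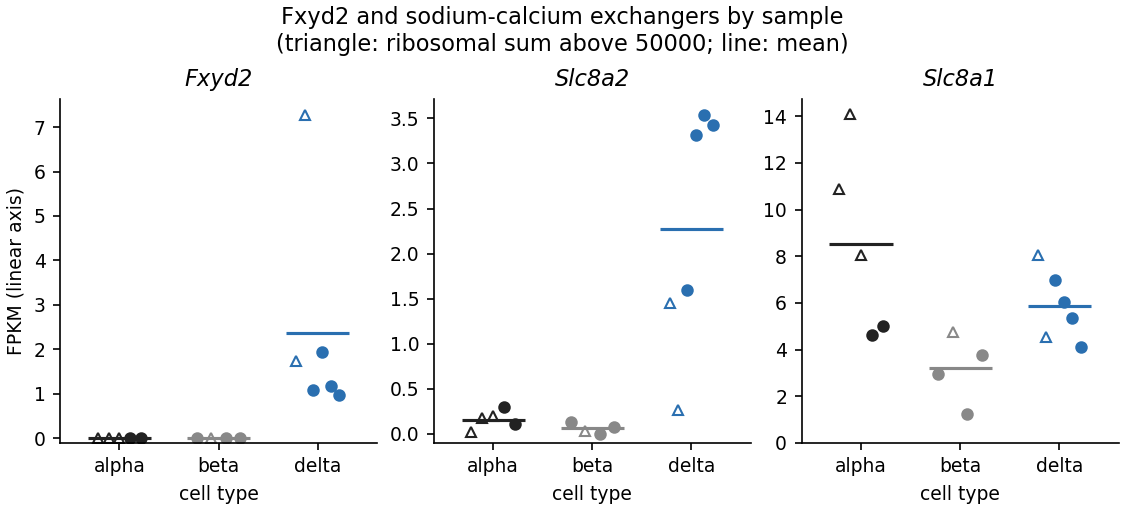
FPKM (linear axis) of Fxyd2, Slc8a2 and Slc8a1 by sample, with a line at the mean of each cell type and open triangles where the summed ribosomal protein FPKM was above 50000. Fxyd2 is at 0 except in delta cells, where sample 2 is the highest at 7.27 FPKM, while the cell types overlap for Slc8a1.

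Some markers of other pancreatic cells moved with some of these results, and others did not. The 7 acinar markers summed to 20.3 to 506 FPKM in delta cells, 0.0651 to 83.5 in alpha cells and 0.0447 to 14.5 in beta cells, with the highest sum in delta sample 4. In that sample Atp1b1, Atp1b2, Fxyd3 and Fxyd6 were at 127, 40.0, 126 and 112 FPKM, of which Fxyd6 was the lowest of the delta cells and the others lay within their range. Cela1, an elastase gene and the acinar marker called higher in delta cells (adjusted p = 0.00187 against alpha and 0.000194 against beta cells, limma), was at 95.2 and 91.9 FPKM in delta samples 1 and 2 and at 17.9 to 48.4 FPKM in the other 4, against at most 10.2 FPKM elsewhere. Delta samples 1 and 2 were also the highest in Fxyd3 (244 and 441 FPKM) and in Fxyd6 (253 and 217 FPKM). The other acinar markers did not share this order. Each was highest in delta sample 4, as with Ctrb1 at 340 FPKM there against 53.4 and 29.1 FPKM in samples 1 and 2. None of them was called in delta cells. The 5 ductal markers summed to 36.9 to 106 FPKM in delta, 40.5 to 184 in alpha and 14.3 to 32.7 in beta cells, and single markers went different ways. Krt19, a keratin of duct cells, was at 0 in every sample of delta cells. Sox9, a transcription factor of ducts, was at 0.112 to 2.33 FPKM in delta cells and at most 0.0131 FPKM elsewhere, and it passed the filter through delta cells alone. Ppy had its lowest level in beta cells, as did Fxyd3 and Fxyd6. The part of these cells in the differences was not tested.

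For each gene, the genes with the most similar pattern over the 15 samples were taken by the Pearson correlation of log2(FPKM + 1) among the genes tested. These values describe points that share cell types and libraries, and no test was made. For Fxyd6 they were Grb7 (0.971), 2010107G23Rik (0.963) and Sst (0.960), the hormone gene of delta cells. For Fxyd3 they were Cd200 (0.968), Pabpc1l (0.948) and Bik (0.930). For Atp1b2 they were Galnt10 (0.948), Nr1d1 (0.942), a nuclear receptor of the circadian clock, and Cd44 (0.939), a cell adhesion receptor. For Atp1b1 they were Marveld2 (0.902), Stim1 (0.901), the calcium sensor of the endoplasmic reticulum, and Rgs7 (0.901). For Atp1b3 they were 5730494N06Rik (0.961), Srsf7 (0.953) and Ssbp1 (0.952). Within the 5 genes, Fxyd3 and Fxyd6 were the most alike (0.848) and Atp1b2 and Atp1b3 the least (-0.349).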

How the data were processed

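The 15 samples of purified mouse islet cells were grouped by their titles. Whether samples shared mice is not stated, so p-values measure the spread between these samples. The authors aligned single 50 nt reads to GRCm38 with TopHat (2.0.11 in the methods, 2.0.8 in the submitters' processing notes) and deposited gene-level FPKM that Cufflinks 2.2.1 had computed; the annotation release is not given in the sources used here. The authors' own edgeR comparison of raw counts is not used here. Instead, limma 3.58.1 (R 4.3.3; lmFit, eBayes with trend) was run on log2(FPKM + 1), which understates changes of low genes, with all samples in one fit and no covariate. Genes with a mean above 1 FPKM in a cell type were tested (14405), with Benjamini-Hochberg adjustment over all of them and calls at adjusted p under 0.05. The fit was tested on simulated data. Steps used Python 3.11.15, numpy 2.4.6, pandas 2.3.3 and matplotlib 3.10.9.

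The 5 genes and the lists were chosen with earlier results of these data known, as was the limit of 50000 for summed ribosomal protein FPKM. Named are these 5 genes, the listed pump genes and exchangers, marker lists, and the 3 genes most like each of the 5. Some genes of the lists are not reported here, and counts and sums are over those that are. GENCODE M21 has an entry for 36341 genes. Depth was estimated from 5024 genes with 1 transcript of more than 1000 bases, on an assumed fragment length of 200 bases. Endothelial, mesenchymal and immune marker sums were at most 0.997, 3.79 and 2.79 FPKM. Alternatives were other filters, a pseudocount of 0.1, other scalings, other sets of samples, covariates and leaving out each sample.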

Additional observations from a re-analysis of the deposited data

Results flagged for a closer look

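Of 30 groups of samples examined (the level and the share of each of the 5 genes in each cell type), 2 held a sample far from the others by Dixon's criterion, where chance gives about 1.5. Fxyd6 in beta cells was at 40.2 FPKM in sample 2, against 8.81 to 12.1 in the other 3 samples, and beta sample 2 also had the highest Fxyd3 and Atp1b3 of the beta cells and was the only beta cell sample with a summed ribosomal protein FPKM above 50000. The share of Atp1b2 among beta subunit transcripts was 5.6% in delta sample 2, the lowest of the delta cells, in which the level of Atp1b2 was 10.8 FPKM.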

How the results depend on the processing

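Ratios of means without single samples were added after the data were seen. Calls of the 5 genes in delta cells kept their direction under all alternatives run. The calls for Atp1b2 and Fxyd6 in both comparisons and for Fxyd3 against beta cells held throughout; that for Atp1b1 against alpha cells held in 20 of 27 and was lost in the 9 samples of lower ribosomal protein FPKM, a fit added after the data were seen with fewer samples (1.75). Causes were not tested otherwise.

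In beta against alpha cells, the difference of Fxyd6 passed the threshold with a pseudocount of 0.1 (-1.60), median-ratio size factors (-1.29), quantile normalization (-1.37), the ribosomal set as a term (-1.20), the 9 samples of the lower set (-1.76), no variance trend (-1.53) and rescaling over protein-coding genes without hormones (-1.29, added after the data were seen), but was -0.39 with rescaling over all genes (adjusted p = 0.677, limma). Under each of these settings that passed, 1 of the 5 genes was called, except for rescaling over protein-coding genes without hormones. There 2 were called, as Fxyd3 was called too (-1.98). With rescaling over all genes 0 were called. The difference of Atp1b3 turned to 0.07 with size factors, 0.79 and 0.11 with rescaling over all and over protein-coding genes, 0.23 with the set as a term and 0.25 as the ratio of means. Rescaling over all genes, 31.8% to 59.5% of whose sum is 1 short gene (Gm12563), also turned Atp1b3 in delta against alpha cells (0.51) and made a call of Fxyd3 (2.18), as did the set as a term (1.79). Atp1b1 in delta against beta cells was called after quantile normalization (1.21) and rescaling over protein-coding genes (1.29).

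The numbers of genes called in beta against alpha cells were 1104 as reported, 2072 with size factors (52.7% higher, against 37.0%), 1970 with quantile normalization (47.6% higher), 581 and 1866 with the 2 rescalings (84.7% and 47.4% higher), 520 in a fit of those cells alone and 1554 in the 9 samples of the lower set (14.4% higher). In delta against alpha cells they were 981 (78.3% higher), and 1529 and 1598 with the rescalings (94.8% and 85.9% higher), 1064 with size factors (67.9%) and 1088 with quantile normalization (56.8%). In delta against beta cells they were 2114 (79.6% higher), and 1350 and 3247 with the rescalings (77.4% and 80.7%), 2676 with size factors (51.5%), 2745 with quantile normalization (50.9%) and 3159 in the lower set (91.0%). Across cell types the second rescaling called 3725 against 2301.

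Same-numbered samples deviated together weakly if at all (mean correlation 0.0762 over 13 pairs, from -0.152 to 0.281, above 0.1 in 5). Whether same-numbered alpha and beta cell samples came from the same sort is not stated. These correlations cannot decide it, because the deviations also differ with the ribosomal protein level and most pairs cross mouse lines. With the replicate block in the fit of all 15 samples, Fxyd6 in beta against alpha cells was called (-1.55), the only one of the 5 genes (1); a replicate block in replicates 1 to 4 of alpha and beta cells called 0 genes by limma, with 2751 at an unadjusted p under 0.05.

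Leaving out each sample gave ranges of 1.44 to 1.88 for Atp1b1 in delta against alpha and 0.88 to 1.48 in delta against beta cells, -0.75 to 0.32 for Atp1b3 in beta against alpha and -0.84 to 0.22 in delta against beta cells, 0.49 to 1.59 for Fxyd3 in delta against alpha cells, -2.93 to -1.68 for Fxyd3 and -2.0 to -1.30 for Fxyd6 in beta against alpha cells. The sign of Atp1b3 turned without alpha sample 2 (0.01), beta sample 1 (0.05) or beta sample 3 (0.32), and in delta against beta cells without beta sample 2 (0.22). Genes called in beta against alpha cells ranged from 698 (without beta sample 4) to 1743 (without beta sample 2), and 0 to 2 of the 5 genes were called. In the samples above 50000, the share of Atp1b1 was 45.6% and that of Atp1b3 51.3% in beta cells, and that of Atp1b3 was 17.8% in delta cells. The share of Atp1b2 in alpha cells was 1.34% in these samples and 5.2% in the others. Depth is unknown in 9 samples, so no floor is given for values listed at 0.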
